A study of Mus musculus with 16 samples.

Results

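Retnla encodes resistin-like alpha, also called RELM-alpha or FIZZ1, a small cysteine-rich protein that macrophages and airway cells secrete. It was taken as the row with that symbol in the deposited tables, which is 1 of the 10920 genes listed in each of 16 libraries. RNA was sequenced from mouse bone-marrow-derived macrophages, which are macrophages grown in culture from the marrow of C57BL/6 mice aged 8 weeks. All 16 cultures were grown with the macrophage growth factor M-CSF at 20 ng/ml for 7 days. The 4 groups, with 4 libraries each, were Sirt3K223R cells given IL-4 at 20 ng/ml for 24 h, Sirt3K223R cells left untreated, wild-type cells given the same IL-4, and wild-type cells left untreated. Sirt3K223R is a change of lysine to arginine in Sirt3, the main protein deacetylase of mitochondria, and per the labels it was carried by the mice from which the marrow came. The cells were therefore of the 2 genotypes throughout the culture, and an effect of the change on how macrophages formed in M-CSF cannot be told apart from one on their response to IL-4.

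IL-4 binds a receptor that contains the IL-4 receptor alpha chain. Janus kinases on the receptor then phosphorylate the transcription factor STAT6, which enters the nucleus and switches on genes of alternative macrophage activation. In mice Retnla is among the most strongly induced of these genes, and its promoter is a textbook case of a STAT6 site beside a site for C/EBP factors. The protein is found at high levels in allergic and worm-infected tissue, where it has been linked to tissue repair and to limiting type 2 inflammation.

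The promoter is shown because it holds those paired sites close together. In the 300-base RefSeq window around the Retnla start (assembly GRCm38.p6, chromosome 16, plus strand, start at 48842609), the motif TTCNNNNGAA for STAT6 was found at 48842464 to 48842473, 145 bases before the start. The motif TTGCNNAA for C/EBP was found at 48842475 to 48842482, 134 bases before the start. The 2 matches do not overlap and are separated by a single base. Both are in capitals in the following stretch, chr16:48842359-48842550, read 5′ to 3′ on the plus strand and ending just before the gene start in GENCODE M21.
Retnla: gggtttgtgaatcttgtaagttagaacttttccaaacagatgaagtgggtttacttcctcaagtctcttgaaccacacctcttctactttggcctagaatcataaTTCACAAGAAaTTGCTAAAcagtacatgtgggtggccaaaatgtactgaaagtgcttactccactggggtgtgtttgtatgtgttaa
The letters TATAAA, the core of a TATA box, were found further on, 30 bases before the RefSeq start. They lie at 48842579 to 48842584, inside the gene as placed by GENCODE M21, which starts it at 48842551. The annotated starts differ, and the distances given here are from the RefSeq start.

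Neither motif is rare on its own. Searched on both strands, the STAT6 motif was present in 6.95% and the C/EBP motif in 10.8% of all 32851 RefSeq windows of the same length, and TATAAA was present in 13.6%. The STAT6 and C/EBP motifs stood together in 0.84% of the windows. Of 36 other IL-4 target genes in the files, 22 had windows, 27 in all. The STAT6 motif was found in 7 of these windows, the C/EBP motif in 7, and both in the same window in 0. The match of letters is a description of the sequence, since binding was not measured.

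The deposited gene spans 48842552 to 48844461 on chromosome 16 of GRCm38, identifier ENSMUSG00000061100.3. GENCODE M21 gives it 1 transcript with 4 exons, and the deposited value covers the whole gene. Its relatives Retn, Retnlb and Retnlg were not among the genes listed, so they could not be analysed here. FPKM, the unit the values appear to have, scales sequenced fragments by library size and by length of transcript, so levels of different genes are compared per length. Sequencing depth is unknown. Values over all genes summed to between 288143 and 306581 per library, and the libraries correlated with their own group at a median r of 0.985 to 0.990, apart from Sirt3K223R IL-4 replicate 2 at 0.980. Tables of the 2 genotypes were laid out differently, with gene types listed for Sirt3K223R alone, and a difference in the authors' processing cannot be told apart from genotype.

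The labelled cell type was matched by its markers, since all 12 macrophage markers looked for were present. Their summed level was 13322 to 15001 FPKM in Sirt3K223R IL-4 cells, 15355 to 18223 in untreated Sirt3K223R cells, 12579 to 14583 in wild-type IL-4 cells and 16599 to 18468 in untreated wild-type cells. Eosinophils can also make resistin-like alpha. The 4 of 8 eosinophil markers in the files summed to 11.3 to 13.4 FPKM in Sirt3K223R IL-4 cells and 10.6 to 19.1 FPKM in wild-type IL-4 cells, and to 15.1 to 17 FPKM in untreated Sirt3K223R cells and 11.8 to 16.6 FPKM in untreated wild-type cells. Of these, Ear1 was at 0.913 to 1.95 FPKM in Sirt3K223R IL-4 cells and at 0 to 0.345 FPKM in wild-type IL-4 cells. Untreated, Ear1 was at 0 to 0.239 FPKM in Sirt3K223R cells and 0 to 0.112 FPKM in wild-type cells. Prg2 was at 0 to 0.295 FPKM in Sirt3K223R IL-4 cells and 0.510 to 1.03 FPKM in wild-type IL-4 cells, and Siglecf at 5.68 to 6.88 FPKM and 6.06 to 14.2 FPKM in those groups. Ccr3 was at 3.86 to 4.95 FPKM in Sirt3K223R IL-4 cells and 3.49 to 4.15 FPKM in wild-type IL-4 cells. The 7 of 12 neutrophil markers in the files summed to 58.8 to 84.2 FPKM in Sirt3K223R IL-4 cells and 66.9 to 119 FPKM in wild-type IL-4 cells, and to 120 to 162 FPKM in untreated Sirt3K223R cells and 93.2 to 176 FPKM in untreated wild-type cells. The part of these cells in the results was not tested. Fewer cells that make a transcript and less of it per cell cannot be told apart in such bulk samples.

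Retnla was under 10 FPKM in every untreated library and among the most abundant transcripts with IL-4. In Sirt3K223R IL-4 cells it measured 6049, 3832, 5997 and 4429 FPKM in replicates 1 to 4. In untreated Sirt3K223R cells it measured 3.73, 0.645, 9.41 and 0.838 FPKM. In wild-type IL-4 cells it measured 714, 1390, 1380 and 1317 FPKM. The 8 IL-4 libraries stood far above the 8 untreated ones, and every Sirt3K223R IL-4 library stood above every wild-type IL-4 library. In untreated wild-type cells the values were 1.06, 1.10, 1.17 and 2.26 FPKM. The untreated groups overlapped, with 2 Sirt3K223R libraries below and 2 above all 4 wild-type libraries.

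**Figure D1:**
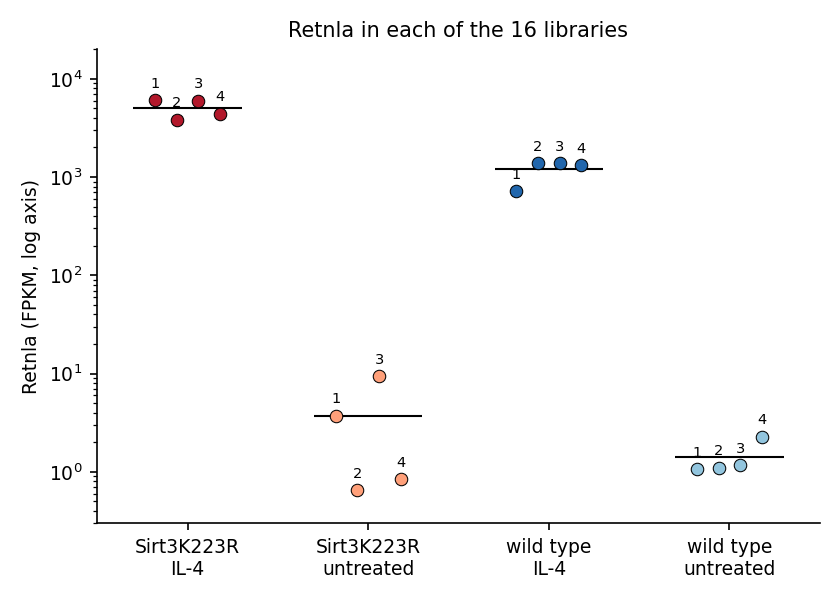
Retnla in FPKM on a log axis, with a point for each of the 16 libraries (numbered by replicate) and a line at each group's mean. The 4 Sirt3K223R IL-4 libraries sit between 3832 and 6049 FPKM, above the 714 to 1390 FPKM of wild-type IL-4 libraries, and all 8 untreated libraries lie under 10.

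Ordered by mean, the level was 5077 ± 1120 FPKM in Sirt3K223R IL-4 cells, 1200 ± 326 in wild-type IL-4 cells, 3.65 ± 4.09 in untreated Sirt3K223R cells and 1.40 ± 0.578 in untreated wild-type cells (SD, n = 4 each). Neighbours in this order were further apart than their spread except the last pair. Among 10920 genes Retnla ranked 4th to 8th by level in the Sirt3K223R IL-4 libraries and 24th to 45th in the wild-type IL-4 libraries. Of the FPKM summed over these 10920 listed genes, it made up 1.67% ± 0.367 in Sirt3K223R IL-4 cells and 0.396% ± 0.103 in wild-type IL-4 cells (SD, n = 4 each). Untreated, it ranked between 4182 and 10132 in Sirt3K223R cells and between 8292 and 9542 in wild-type cells. The relative spread was widest in untreated Sirt3K223R cells, at a coefficient of variation of 112%, against 41.3% in untreated wild-type cells.

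The response to IL-4 asks how far the cytokine switched the gene on in each genotype. Retnla rose with IL-4 in both, and in both it had the largest rise of the 9891 genes tested on the log2(FPKM + 1) scale. The added 1 compresses rises from values near 0, so this rank depends on the scale. Mgl2, for one, averaged 83.6 FPKM with IL-4 and 0.0525 FPKM untreated in Sirt3K223R cells. The difference of Retnla in Sirt3K223R cells was 10.48 on the log2(FPKM + 1) scale (SE 0.45, 95% interval 9.52 to 11.44, limma adjusted p = 1.38e-10). In wild-type cells it was 8.94 (SE 0.45, interval 7.99 to 9.90, limma adjusted p = 1.47e-09). IL-4 changed many genes: 42.6% of genes tested were called in Sirt3K223R cells (13.5% higher, 29.1% lower) and 26% in wild-type cells (10.7% higher, 15.3% lower) at a limma adjusted p under 0.05. With median-ratio scaling 50.4% of the called genes were higher in Sirt3K223R cells, in place of 31.6%, and 51.8% in wild-type cells, in place of 41.0%. The lowest IL-4 library was 407 times the highest untreated library in Sirt3K223R cells and 315 times in wild-type cells. A 2-sided exact permutation test of the 4 IL-4 against the 4 untreated values gave p = 0.0286 in each genotype, the smallest that 4 against 4 can give, or 0.0381 adjusted over 4 comparisons.

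As a ratio of group means, the rise was 1389-fold in Sirt3K223R cells and 857-fold in wild-type cells. These ratios rest on the low untreated values. Without untreated Sirt3K223R replicate 3, which alone reached 9.41 FPKM, the untreated Sirt3K223R mean was 1.74 FPKM and the ratio 2922. Between libraries of the same number, the ratio of IL-4 to untreated was 1622, 5937, 638 and 5287 in Sirt3K223R cells and 672, 1259, 1179 and 582 in wild-type cells. The Sirt3K223R ratios spanned the wider range, and 1 of the 4 fell within the wild-type range.

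With IL-4, the comparison of genotypes asks whether Sirt3K223R altered the induced level. Retnla was 4.23-fold higher in Sirt3K223R than in wild-type IL-4 cells by group means, with a log2(FPKM + 1) difference of 2.10 (SE 0.45, 95% interval 1.15 to 3.06, limma adjusted p = 0.00616). Of genes tested, 15% were called in this comparison, 5% higher and 10% lower. With median-ratio scaling 57.3% of the called genes were higher, in place of 33.3%. Retnla had the fifth largest rise among them. The lowest Sirt3K223R library, at 3832 FPKM, was 2.76 times the highest wild-type library, at 1390 FPKM, and the exact permutation p was 0.0286, or 0.0381 adjusted over 4 comparisons. Leaving out any single IL-4 library kept the ratio of means between 3.73, without wild-type replicate 1, and 4.58, without Sirt3K223R replicate 2.

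Without IL-4, Retnla did not differ beyond the spread between libraries. The log2(FPKM + 1) difference of Sirt3K223R from wild type was 0.57 (SE 0.45, 95% interval -0.39 to 1.53, limma adjusted p = 0.880, exact permutation p = 0.486). The ratio of means was 2.61, and 1.24 without untreated Sirt3K223R replicate 3. In this comparison limma called 0 of 9891 genes, or 0%, and 737 had an unadjusted p under 0.05. At these levels a pseudocount of 1 compresses differences, and the interval leaves room for a difference in either direction.

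The untreated Sirt3K223R libraries differed among themselves, and another IL-4 target followed the same order. Chil3, a secreted chitinase-like protein, measured 20.0, 13.6, 27.2 and 14.5 FPKM in untreated Sirt3K223R replicates 1 to 4, again highest in replicate 3 and lowest in replicate 2. In untreated wild-type replicates 1 to 4 it measured 9.64, 8.98, 18.9 and 17.6 FPKM, where Retnla was highest in replicate 4. Arg1, which encodes arginase 1, did not follow that order: it measured 1.36, 2.68, 2.48 and 0.860 FPKM in the untreated Sirt3K223R libraries.

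The interaction asks whether the response to IL-4 itself differed between the genotypes. For Retnla the response was larger in Sirt3K223R cells by 1.53 on the log2(FPKM + 1) scale (SE 0.63, 95% interval 0.18 to 2.89), with an unadjusted p of 0.029 and a limma adjusted p of 0.246, so it was not called. Of genes tested, 2.14% were called for the interaction, 212 genes; with the replicate number as a block these were 326 (fixed effect) or 401 (random effect), and Retnla was called with neither. With a pseudocount of 5, which gives low values less weight, the difference was 1.77 (limma adjusted p = 0.0268), and with a pseudocount of 0.1 it was 1.45 (limma adjusted p = 0.422). Without untreated Sirt3K223R replicate 3 it was 2.06 (limma adjusted p = 0.0439), and without untreated Sirt3K223R replicate 2, the lowest, it was 1.17 (limma adjusted p = 0.382).

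**Figure D2:**
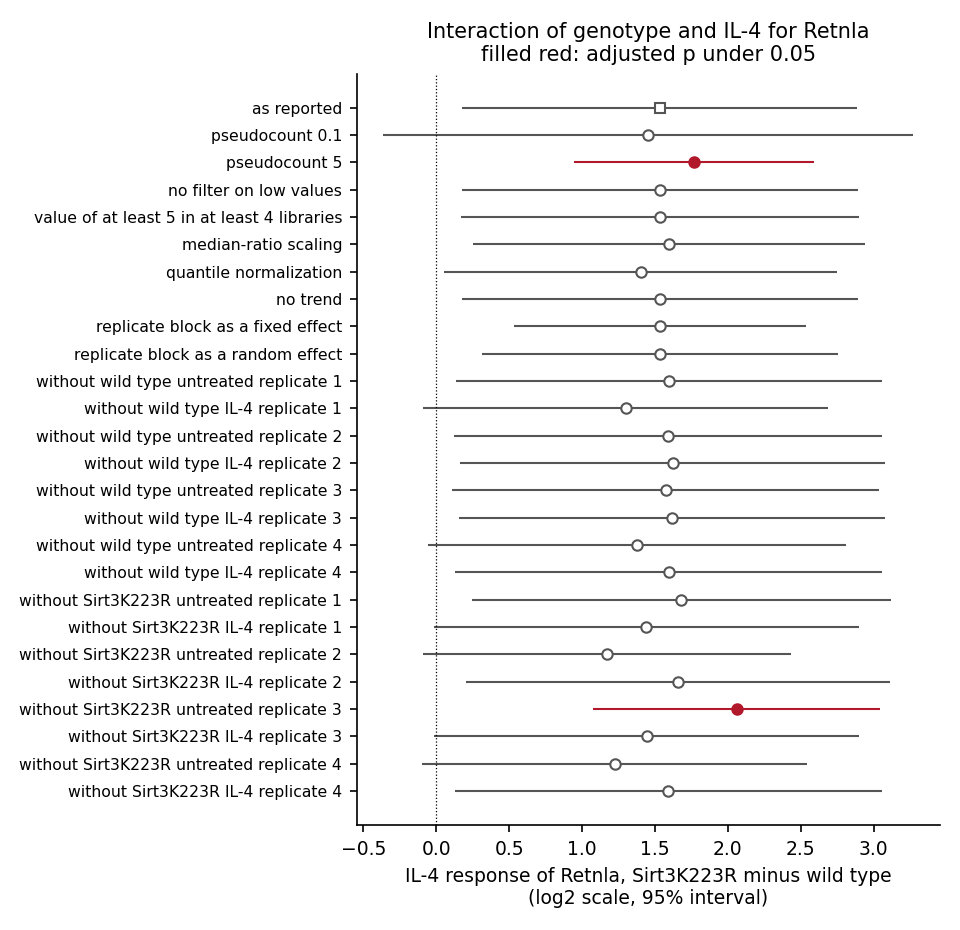
Difference of the IL-4 response of Retnla, Sirt3K223R minus wild type, in log2 units with 95% intervals, as reported (square) and under each alternative (circles). All values are positive, from 1.17 to 2.06, and 2 (filled red) passed an adjusted p of 0.05: a pseudocount of 5 and leaving out untreated Sirt3K223R replicate 3.

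Set against other IL-4 targets in the same library, Retnla stood out from some and not from others. Relative to Arg1, it measured 17, 10.6, 17.6 and 12 FPKM per FPKM in the Sirt3K223R IL-4 libraries, against 2.01, 3.92, 4.59 and 4.86 in the wild-type IL-4 libraries. The groups did not overlap, and the ratio was 3.84-fold higher in Sirt3K223R cells (2-sided exact permutation p = 0.0286, 0.0429 adjusted over 3 ratios). Relative to Mrc1, the mannose receptor, it was 24.3 ± 5.23 in Sirt3K223R and 5.68 ± 1.71 in wild-type IL-4 cells (SD, n = 4 each), 4.38-fold higher (exact permutation p = 0.0286, 0.0429 adjusted). Arg1 and Mrc1 themselves differed between the genotypes with IL-4 by 0.16 and -0.03 on the log2(FPKM + 1) scale (limma adjusted p = 0.714 and 0.908).

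The ratio to Chil3 behaved otherwise. It was 0.894, 0.633, 0.874 and 0.647 in the Sirt3K223R IL-4 libraries, against 0.309, 0.966, 0.653 and 0.744 in the wild-type IL-4 libraries. The groups overlapped, and the log2 difference was 0.28 (exact permutation p = 0.629). Without wild-type IL-4 replicate 1, whose Retnla value was the lowest of its group and whose Chil3 value of 2309 FPKM was the highest, the difference was -0.05. Chil3 itself was at 6633 ± 388 FPKM in Sirt3K223R and 1907 ± 384 FPKM in wild-type IL-4 cells (SD, n = 4 each), a log2 difference of 1.82 (SE 0.24, limma adjusted p = 0.000229).

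**Figure D3:**
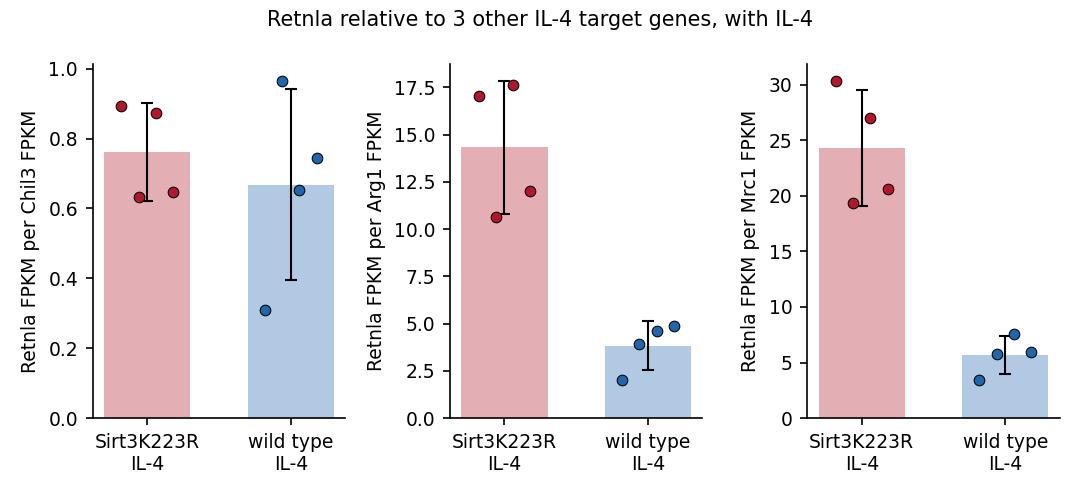
Retnla FPKM divided by the FPKM of Chil3, Arg1 and Mrc1 in each IL-4 library, with bars at the group means and SD error bars (n = 4 each). The Sirt3K223R points lie above all wild-type points for Arg1 (10.6 and higher against 4.86 and lower) and for Mrc1, and overlap them for Chil3.

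A list of 39 other IL-4 target genes gave the setting, of which 36 were in the files and 32 were tested. In Sirt3K223R cells 28 rose with IL-4 and 2 fell, where 13.5% of all genes tested were called higher and 29.1% lower. In wild-type cells 30 rose and 1 fell, where 10.7% of all genes were called higher and 15.3% lower. Members under 1 FPKM in every untreated library, such as Mgl2, Chil4 and Il4i1, passed the filter only through their IL-4 libraries. A rise in such members was close to fixed in advance, so the counts and medians are a description. The median log2(FPKM + 1) difference of the list was 2.14 in Sirt3K223R and 1.76 in wild-type cells, against -0.09 and -0.04 over all genes tested. Mgl2, a lectin receptor, rose by 6.30 in Sirt3K223R cells and 5.15 in wild-type cells on that scale. Pdcd1lg2, a ligand of the inhibitory receptor PD-1, rose by 4.49 and 4.14, and Il4i1, a secreted amino acid oxidase, by 3.77 and 3.56. Ocstamp, a cell fusion gene, rose by 2.91 and 3.0. The members that fell are named after their values were seen: Trem2, a lipid-sensing receptor, fell by 0.23 in Sirt3K223R and 0.28 in wild-type cells, and Tgm2, a transglutaminase, fell by 0.28 in Sirt3K223R cells and rose by 0.64 in wild-type cells. Those falls are small. Under scaling by median ratios neither Trem2 nor Tgm2 was called lower, and the Trem2 call in Sirt3K223R cells held in 9 of 26 alternatives.

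By mean level among these 37 genes, Retnla included, Retnla ranked second in both IL-4 groups, behind Chil3. Next came Cd36, a fatty acid receptor, at 737 ± 49.2 FPKM in Sirt3K223R and 741 ± 41.7 FPKM in wild-type IL-4 cells (SD, n = 4 each). Without IL-4 Retnla was 12th in Sirt3K223R and 17th in wild-type cells, where Cd36 was highest at 641 ± 39.3 and 546 ± 48.5 FPKM.

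Between the genotypes with IL-4, 11 of the 32 targets were higher and 1 was lower in Sirt3K223R cells. Of all genes tested, 5% were called higher and 10% lower. The list was chosen with earlier results of these data known, so these counts are a description. The list's median log2(FPKM + 1) difference was 0.26, against -0.05 over all genes, and 3 members lay above the 2.10 of Retnla. Fn1, which encodes the matrix protein fibronectin, measured 63.3, 32.3, 74.7 and 47.1 FPKM in Sirt3K223R IL-4 cells, against 5.72, 8.69, 12.8 and 9.84 FPKM in wild-type IL-4 cells. The groups did not overlap, and its difference was 2.41 (SE 0.23, limma adjusted p = 2.15e-05). Chil4, a close relative of Chil3, averaged 16.7 ± 4.29 FPKM in Sirt3K223R and 2.63 ± 0.438 FPKM in wild-type IL-4 cells (SD, n = 4 each), a difference of 2.27 (limma adjusted p = 8.17e-08). Ear2, an eosinophil-type ribonuclease, measured 701, 323, 770 and 538 FPKM in Sirt3K223R IL-4 cells, against 97.0, 98.2, 171 and 116 FPKM in wild-type IL-4 cells. Its difference was 2.23 (limma adjusted p = 4.66e-05).

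Just below Retnla came Rnase2a, another ribonuclease of that family, at 2.03 (limma adjusted p = 0.0015, and 0.059 with a pseudocount of 0.1). Chil3 and Chil4 resemble each other closely in sequence, as do Ear2 and Rnase2a, and their values are uncertain because the counting of shared reads is not described. Mgl2 was higher by 1.11, Ccl24, a chemokine for eosinophils, by 1.08, and Vwf, von Willebrand factor, by 0.65. The remaining higher members, named after their values were seen, were Ciita (1.44), Apol7c (1.21) and Ass1 (0.55). Ciita is the master regulator of MHC class II genes, and Ass1 makes argininosuccinate, a precursor of arginine. Tgm2 was the lower member, at 77.4 ± 8.25 FPKM in Sirt3K223R and 142 ± 5.16 FPKM in wild-type IL-4 cells (SD, n = 4 each), a difference of -0.87. Untreated, 0 of the 32 targets were called by limma in either direction, as were 0 of all genes tested; Chil3 differed by 0.44 and Cd36 by 0.23 (limma adjusted p = 0.750 and 0.430).

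For the interaction, 6 targets had a larger response in Sirt3K223R cells and 1, Tgm2, a smaller one. Of all genes tested, 0.778% were called higher and 1.36% lower. These counts too are a description, since the list was chosen with earlier results of these data known. With median-ratio scaling 59.0% of the genes called for the interaction were higher, in place of 36.3%. The 6 were Chil4 (2.27), Fn1 (2.20), Ear2 (1.57), Chil3 (1.38), Ccl24 (1.30) and Mgl2 (1.15), with limma adjusted p-values from 1.08e-05 to 0.0488. The Retnla value of 1.53 lay within this range of sizes, with a standard error of 0.63 against 0.17 to 0.34 for the 6. The calls of Chil3, Ccl24 and Ear2 were lost in 15, 9 and 6 of the alternatives, of which 24 or 25 could be run for each. That of Mgl2 was lost with a pseudocount of 0.1 (limma adjusted p = 0.148). Chil4, Ccl24 and Mgl2 were under 1 FPKM in every untreated library and passed the filter only through their IL-4 libraries. Their interaction values therefore largely repeat their genotype differences with IL-4, which was 1.11 for Mgl2.

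**Figure D4:**
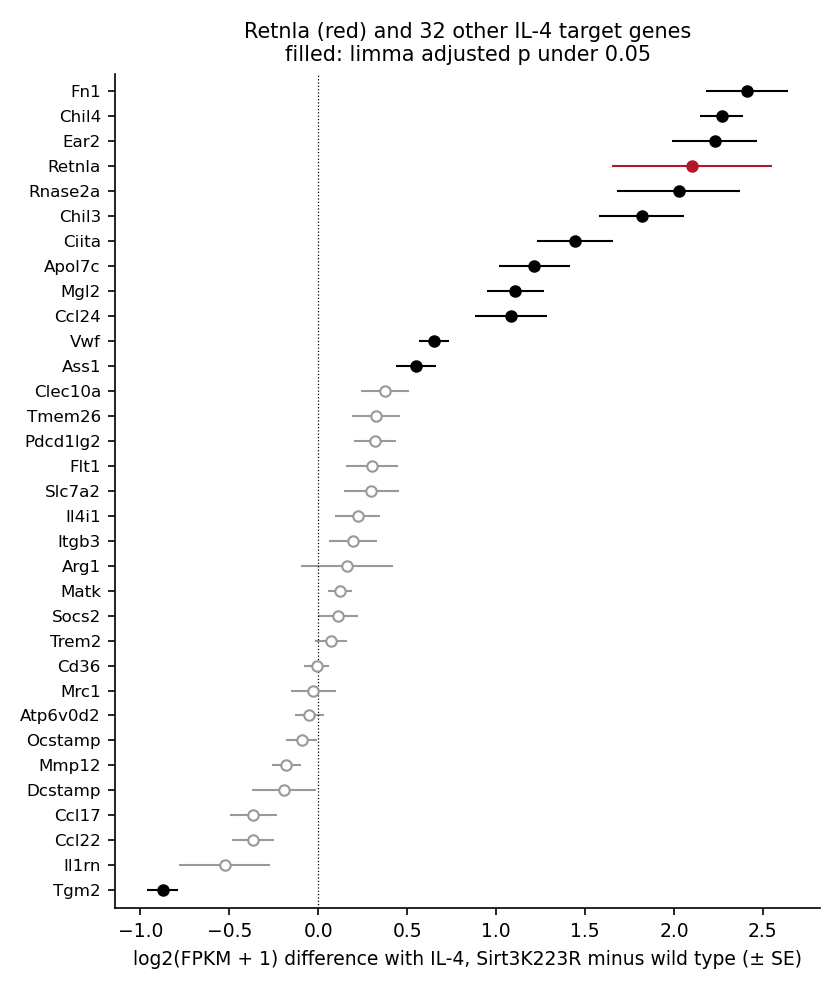
Difference in log2(FPKM + 1) between Sirt3K223R and wild-type IL-4 cells, with standard errors, for Retnla (red) and 32 other IL-4 target genes, ordered by size; filled points passed a limma adjusted p of 0.05. Retnla, at 2.10, comes after Fn1 (2.41), Chil4 (2.27) and Ear2 (2.23), while Arg1 (0.16) and Mrc1 (-0.03) lie near 0.

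The genes whose pattern was most like that of Retnla were chosen by Pearson r of log2(FPKM + 1) among the 9890 other genes tested, as a description over libraries that share groups. Over all 16 libraries the highest were Rnase2a (0.995), Chil3 (0.994), Mgl2 (0.992), Nfil3 (0.991) and Irf4 (0.991). Rnase2a measured 745, 224, 758 and 596 FPKM in Sirt3K223R IL-4 cells, 0.502, 0.209, 1.31 and 0 FPKM in untreated Sirt3K223R cells, and 87.5, 127, 163 and 147 FPKM in wild-type IL-4 cells. Like Retnla it was lowest in replicate 2 among the Sirt3K223R IL-4 libraries and in replicate 1 among the wild-type IL-4 libraries. Nfil3 and Irf4 encode transcription factors. Nfil3 rose by 3.10 in Sirt3K223R and 3.11 in wild-type cells with IL-4 and was not called between the genotypes with IL-4 (0.24, limma adjusted p = 0.111). Next in likeness were Tex9, Smap2, Prkcd, Stt3b and Sash3, at r of 0.987 to 0.989, with 1 gene model without a proper symbol among them. Prkcd encodes protein kinase C delta, and Stt3b a subunit of the enzyme that attaches N-linked sugars. In the promoter windows of the 9 of these 10 genes that had them, the STAT6 motif was present in Stt3b and the C/EBP motif in Prkcd and Rnase2a, and both together in 0 of 10 windows. The shares over all RefSeq windows were 6.95%, 10.8% and 0.84%, and 10 windows are too few to tell a difference from these.

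Over the 8 IL-4 libraries alone the genes with the highest r included Selenbp1 (0.989), Ephx1 (0.989), Fn1 (0.988) and Man2b1 (0.985). Ephx1, the microsomal epoxide hydrolase, averaged 107 ± 17.6 FPKM in Sirt3K223R and 47.4 ± 6.54 FPKM in wild-type IL-4 cells (SD, n = 4 each). Selenbp1, a selenium-binding protein, averaged 11 ± 0.67 and 7.92 ± 0.83 FPKM, and Man2b1, the lysosomal alpha-mannosidase, 142 ± 5.29 and 102 ± 7.06 FPKM in the same groups. These 4 were called higher in Sirt3K223R IL-4 cells by limma, where 5% of genes were called higher, and the 8 libraries fall into 2 groups by genotype, which r over them includes. Tgm2 ran the other way, with r = -0.95 over the same 8 libraries. With group means removed, the highest r were Kctd6 (0.871), Trafd1 (0.837), Tor3a (0.798), Cklf (0.793) and Zfp758 (0.771), against 0.705 for Rnase2a and 0.539 for Chil3. Of these 5, none was called between the genotypes with IL-4 (limma adjusted p from 0.115 to 0.874). Retnla itself had a log2(FPKM + 1) SD of 1.25 in untreated Sirt3K223R cells, against 0.316 to 0.467 in the other groups. The r with group means removed therefore rest mainly on the untreated Sirt3K223R libraries.

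The genes that carry the IL-4 signal and the factors around it were described from a list of 38, of which 37 were in the files and 36 tested. In Sirt3K223R cells 16 rose with IL-4 and 7 fell, where 13.5% of all genes tested were called higher and 29.1% lower. In wild-type cells 15 rose and 7 fell, where 10.7% of all genes were called higher and 15.3% lower. The list's median log2(FPKM + 1) difference was 0.12 in Sirt3K223R and 0.09 in wild-type cells, against -0.09 and -0.04 over all genes tested. The feedback inhibitor Socs1 rose by 3.31 in Sirt3K223R and 2.89 in wild-type cells on that scale. Irf4, a transcription factor of alternative activation, measured 10.7, 5.59, 10.2 and 8.76 FPKM in Sirt3K223R IL-4 cells, against 5.66, 5.72, 6.02 and 6.66 FPKM in wild-type IL-4 cells, and was under 0.35 FPKM in all untreated libraries. It rose by 2.94 and 2.61, and passed the filter on low values only through its IL-4 libraries. Among other factors Batf3 rose by 2.57 and 2.26 and Bhlhe40 by 1.49 and 1.73, and Jak2, a Janus kinase, rose by 0.95 and 1.09. Myc rose by 0.96 in Sirt3K223R and 1.23 in wild-type cells.

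The receptor and STAT6 themselves, chosen after their values were seen, differed little with IL-4. Stat6 averaged 53.7 ± 1.99 FPKM in Sirt3K223R IL-4 cells and 61.8 ± 3.02 FPKM in untreated Sirt3K223R cells, and 55.6 ± 0.656 FPKM in wild-type IL-4 cells and 61.5 ± 3.14 FPKM in untreated wild-type cells (SD, n = 4 each). It fell by 0.20 and 0.14 on the log2 scale in those genotypes (limma adjusted p = 0.00324 and 0.0392), the first call being lost with median-ratio scaling (-0.10, limma adjusted p = 0.0844) and the second in 11 of 26 alternatives. It differed between the genotypes with IL-4 by -0.05 (limma adjusted p = 0.500). Il4ra, the receptor alpha chain, differed with IL-4 by -0.10 in Sirt3K223R and -0.20 in wild-type cells (limma adjusted p = 0.388 and 0.123). Cebpb, a C/EBP factor, averaged 85.9 ± 17.3 FPKM in Sirt3K223R and 93.2 ± 12.8 FPKM in wild-type IL-4 cells (SD, n = 4 each) and was called in none of the 5 comparisons. These are transcript levels, and phosphorylated STAT6 was not measured.

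Between the genotypes with IL-4, 4 of the 36 were higher and 3 lower in Sirt3K223R cells, against 5% and 10% of all genes tested. This list too was chosen with earlier results of these data known, so the counts are a description. The higher members were Irf4 (0.45), Ppargc1b (0.44), a coactivator of mitochondrial genes, Kdm6b (0.37), a histone demethylase, and Tyk2 (0.20), a Janus kinase. The lower ones were Bhlhe41 (-0.69), Il13ra1 (-0.46), a receptor chain shared by IL-13 and IL-4, and Rxra (-0.31), a nuclear receptor named after its value was seen. None of the 4 higher members was called when only the 2 groups compared were fitted, and Rxra was lost in 11, Irf4 in 8 and Kdm6b in 5 alternatives, of 25 or 26 run for each. Il13ra1 measured 1.45, 1.02, 1.34 and 1.42 FPKM in Sirt3K223R IL-4 cells, against 2.00, 1.77, 2.36 and 2.62 FPKM in wild-type IL-4 cells. It fell with IL-4 by 1.47 in Sirt3K223R and 0.84 in wild-type cells, and was the only member of the list called for the interaction (-0.63, limma adjusted p = 0.024, above 0.05 in 3 of 25 alternatives), where 1.36% of all genes tested were called lower. Untreated, 0 of the 36 were called by limma. Cebpa, a C/EBP factor, differed there by 0.31 (limma adjusted p = 0.653).

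**Figure D5:**
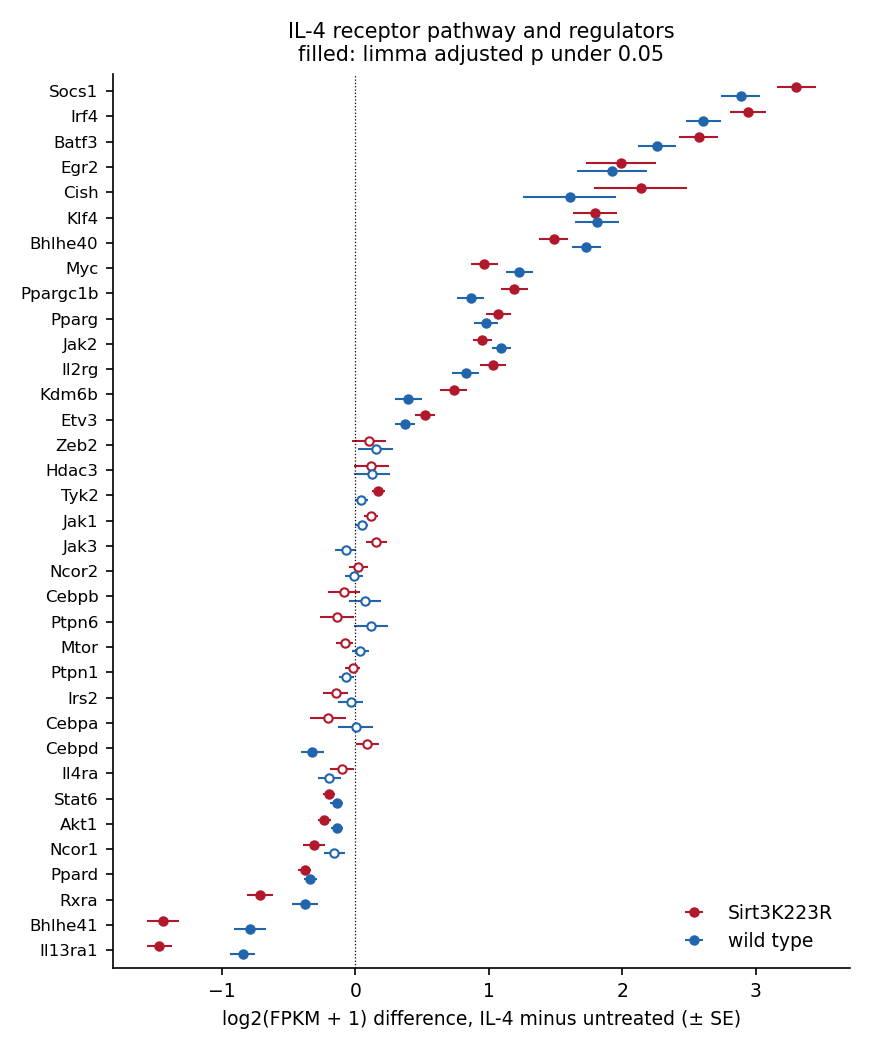
Difference in log2(FPKM + 1) between IL-4 and untreated cells, with standard errors, for genes of the IL-4 receptor pathway and its regulators, in Sirt3K223R (red) and wild-type cells (blue); filled points passed a limma adjusted p of 0.05. Socs1, Irf4 and Batf3 lie above 2 in both genotypes, Stat6 and Il4ra near 0, and Il13ra1 and Bhlhe41 lie lowest, further below 0 in Sirt3K223R cells.

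The genes around Retnla on chromosome 16 had low levels. Within 1 Mb of it the files hold 3 genes, all after its end, of which 1 has no proper symbol. Dzip3, 79.8 kb away, averaged 0.927 ± 0.179 FPKM in Sirt3K223R and 1.21 ± 0.121 FPKM in wild-type IL-4 cells (SD, n = 4 each) and was called in none of the 5 comparisons. Ift57, a component of cilium transport 854.8 kb away, fell with IL-4 by 0.41 in Sirt3K223R and 0.47 in wild-type cells (limma adjusted p = 0.00651 and 0.00465) and was not called between the genotypes.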

How the data were processed

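RNA sequencing of 16 libraries (4 groups of 4) was read from 1 deposited table per library. Libraries were stranded and read from both ends, from Trizol RNA, per the labels' protocols; poly(A) selection or rRNA removal was used, without saying for which library. The unit of the value deposited by the authors was taken as FPKM: the headers name none, the values are not whole numbers, and TPM of a larger gene set remains possible. The aligner and counting tool were not given in the sources used here. Of 10920 identifiers, 9522 are found in GENCODE M21 (GRCm38) with the same version, each with the same coordinates. A blank line (1 per file) was dropped, and no pair of libraries shared values.

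Values were set as log2(FPKM + 1), and genes with at least 1 FPKM in at least 4 libraries were kept, 9891 in all. A model of 4 group means over 16 libraries was fitted with limma 3.58.1 (R 4.3.3, empirical Bayes with trend), with Benjamini-Hochberg adjustment over all genes and a threshold of 0.05 for 5 comparisons. Adjusted p-values are from limma unless said otherwise. Single values were compared with 2-sided exact permutation tests (Python 3.11.15, pandas 2.3.3, scipy 1.17.1). The scripts were tested on simulated data. Whether replicates came from separate mice is not labelled, so p-values cover only variation between these libraries, which may be technical.

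Retnla and the gene lists were chosen with earlier results of these data known. Genes were named by a rule: Retnla; Chil3, Arg1 and Mrc1; the 10, 5 and 5 genes most like Retnla over 16 libraries, over 8 IL-4 libraries and after removing group means; up to 6 called members of each list per comparison with the smallest adjusted p, or the 2 of highest mean where none was called; and genes within 1 Mb. Exceptions are said to be so. Some genes the rule names enter the counts but have no values given here.

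Same-numbered IL-4 and untreated libraries deviated together in wild type (r = 0.286, 0.122, 0.100 and 0.116) and not throughout in Sirt3K223R (0.0524, 0.0830, 0.127 and -0.05); pairs across genotypes lay between -0.17 and 0.0427. A replicate block was an alternative. Other alternatives were pseudocounts of 0.1 and 5, no filter, a filter at 5 FPKM, median-ratio scaling, quantile normalization, no trend, the compared groups alone and leaving out each library. Promoter windows and motifs come from RefSeq sequences.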

Additional observations from a re-analysis of the deposited data

Results flagged for a closer look

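In wild-type IL-4 cells, replicate 1 stood apart with the lowest Retnla value, 714 FPKM, its gap to the next library being 0.893 of the range of the group. In untreated wild-type cells replicate 4 stood apart with the highest Retnla value, 2.26 FPKM (gap 0.910 of the range). The ratio of Retnla to Arg1 was far above the others in untreated wild-type replicate 2, at 1.68 (gap 0.983 of the range). Chil3 was far below the others in Sirt3K223R IL-4 replicate 2, at 6055 FPKM (gap 0.879 of the range). Of 28 groups of values examined in this way, 4 were marked, and chance marks about 1 in 20.

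The response to IL-4 differed between the genotypes by the test of the interaction (limma, log2 scale, Sirt3K223R minus wild type) for 10 of the named genes. It was larger in Sirt3K223R cells for Chil4 (2.27, adjusted p = 1.08e-05), Fn1 (2.20, 0.00436), Ear2 (1.57, 0.0271), Chil3 (1.38, 0.0488), Ccl24 (1.30, 0.0295), Mgl2 (1.15, 0.0185), Ephx1 (1.01, 0.00724) and Selenbp1 (0.55, 0.024). It was smaller, or further below 0, for Tgm2 (-0.92, adjusted p = 0.00257) and Il13ra1 (-0.63, 0.024). Chil4, Ccl24 and Mgl2 passed the filter on low values only through their IL-4 libraries. Their values here therefore largely repeat the genotype difference with IL-4.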

How the results depend on the processing

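For Retnla, the IL-4 and IL-4 genotype calls held in every alternative run. The IL-4 rise ranged from 9.28 to 11.12 in Sirt3K223R cells and from 7.51 to 9.66 in wild type, and the genotype difference with IL-4 from 1.87 to 2.23 (adjusted p at most 0.0283). The untreated genotype difference ranged from 0.04 to 0.93 and was never called. The interaction was called with a pseudocount of 5 (1.77). Leaving out each library gave 1.17 to 2.06, and of these 16 fits 1 was called, that without untreated Sirt3K223R replicate 3 (2.06). The log2 difference of the ratio of Retnla to Chil3, in an alternative added after seeing the data, ranged from -0.048 without wild-type IL-4 replicate 1 to 0.50 without wild-type IL-4 replicate 2. The ratios to Arg1 and Mrc1 kept their direction, at an exact permutation p of 0.0571 each, the smallest that 3 against 4 can give. A replicate block changed no call of Retnla (interaction adjusted p = 0.105 fixed, 0.153 random), but called 326 (fixed) and 401 (random) genes for the interaction against 212. With the random block 10 targets were called higher and 2 pathway members lower. The fit of the compared groups alone called 703 genes between genotypes with IL-4 against 1487, 1 gene untreated, 0 pathway members higher with IL-4 and 1 target lower with IL-4 in Sirt3K223R cells. Targets lower with IL-4 in Sirt3K223R cells numbered 0 under median-ratio scaling and 1 with no trend; in wild type they numbered 2 with no filter and 0 under median-ratio scaling. Pathway members higher between genotypes with IL-4 numbered 2 under the filter at 5, and targets lower there numbered 2 with a pseudocount of 5 and with no trend. Leaving out each library gave 0 to 2 targets lower with IL-4 in Sirt3K223R cells and 0 to 1 in wild type, 2 to 5 pathway members higher and 1 to 2 targets lower between genotypes with IL-4, 0 to 2 genes called untreated, and for the interaction 112 to 335 genes, 3 to 9 targets higher, and 0 to 1 pathway members higher and 0 to 2 lower. Over 164 comparisons of named genes that were called, 4041 of 4202 values kept the call and 0 reversed. The cause of these changes was not tested. Depth is unknown, and values near 1 FPKM limit the untreated comparison.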
